A study of Xenopus laevis with 4 samples.

Results

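The genes described here encode Wnt ligands, the enzymes and carriers that process them, their Frizzled receptors and coreceptors, the R-spondin module and the secreted Wnt antagonists. They were found by matching the single gene symbol of each probe set in the platform annotation against the names of these families. The match gave 70 of 16745 probe sets, which stand for 51 of 11295 genes, with the .L and .S homeologs of this allotetraploid frog kept apart. By role they comprised 14 Wnt ligands, 3 genes of ligand processing, 11 Frizzled receptors, 7 coreceptors, 3 genes of the R-spondin module and 13 secreted antagonists. Relatives such as ror1, rnf43, lgr5 and rspo3 had no probe set matched by name.

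Expression was measured on 4 Affymetrix arrays of whole skin taken from Xenopus laevis embryos at stage 24, each array holding RNA of 20 pooled skins. The 2 control samples came from untreated embryos, with no vehicle named. The 2 treated samples came from embryos kept in SP600125 from stage 14 onward until collection, at a dose labelled as 100 mM, a unit the data could not check. SP600125 occupies the ATP site of the Jun kinases (JNK). All embryos were raised at 15 °C, and no allele or transgene is named for any of them. Whether replicates stem from different clutches is not labelled, so every p-value reflects the spread among these 4 samples and may capture technical variation only. JNK activity itself was not analysed here, and the inhibitor was not compared with a second way of blocking JNK.

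Wnt ligands are lipid-modified secreted proteins. Porcupine attaches the lipid, Wntless carries the ligand to the cell surface, and Frizzled receptors bind it together with a coreceptor. With Lrp5 or Lrp6 the signal stabilises beta-catenin, while with Ror2, Ryk or Ptk7 it feeds the branches that orient cells and can activate JNK. Secreted antagonists either bind the ligand (Sfrp, Frzb and Wif1), remove its lipid (Notum) or block Lrp6 (Dkk1), and R-spondins keep Frizzled at the membrane by holding off the ubiquitin ligase Znrf3. In the Xenopus epidermis these signals take part in the choice between cell types and in the orientation of cilia.

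Markers of the epidermis and of inner tissues were read on the same arrays. Epidermal markers had a mean RMA log2 level of 9.66 and 9.39 in controls and 9.83 and 9.46 after SP600125 (replicates 1 and 2, 34 genes), and 27 of the 34 had higher means after treatment, 10 of them with both treated arrays above both controls and 1 with both below. Muscle markers stood at 6.42 and 5.98 in controls and at 4.86 and 5.38 after SP600125, with 23 of 27 means lower, 19 of them without overlap, and 12 of the 27 dim (a mean log2 level under 5). Markers of tailbud and presomitic mesoderm read 6.37 and 6.05 in controls and 5.65 and 5.55 after treatment, with 19 of 22 lower, 10 without overlap and 5 dim. The 15 endoderm genes read 5.91 and 5.83, then 5.08 and 5.09, with 13 lower, 9 of them without overlap, and 7 dim. For neural and neural crest genes the arrays read 7.13 and 6.28, then 6.44 and 6.40, with 21 of 30 lower, 4 without overlap and 7 dim. Over all genes 45.9% had lower means, 9.1% had both treated arrays below both controls and 12.3% had both above. The neural share with both below, 13.3%, was near that of all genes. The 2 treated arrays thus lay below both controls for the muscle, mesoderm and endoderm lists, while the neural list set control replicate 1 apart from the other 3 arrays. RMA values have no zero, so no marker can be called absent. These shifts accompany the Wnt gene values below. Their part in those values was not tested, and in whole skins fewer cells of a type and less RNA per cell cannot be told apart.

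Over the 51 Wnt pathway genes, levels lay lower after SP600125 more often than higher, by small amounts. The mean was lower for 39 genes and higher for 12, while 45.9% of all genes had a lower mean. Log2 differences, taken as SP600125 minus control, had a median of −0.20, against 0.02 over all genes. Differences ran from −0.96 for ptk7.L to 0.45 for dkk1.S, so that no gene of these families differed by 2-fold. Both treated arrays lay below both controls for 11 genes (9.1% of all genes did so) and above both controls for 6 (12.3% of all genes). For the other 34 genes the groups overlapped.

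No gene of these families passed. In the limma fit, adjusted by Benjamini-Hochberg across 16745 probe sets, 0 member probe sets reached an adjusted p under 0.05 (0% of all probe sets did), and every adjusted p was 1. At an unadjusted p under 0.05 there were 3 genes, all with lower means: wnt5b.S, wls.L and wif1.S. With a trend and robust prior none of the 3 met that threshold, and fzd1.L, with a higher mean, was the 1 gene that did (unadjusted p = 0.044 in limma). Without that prior it was met by 0.938% of all genes with lower means and by 0.726% with higher means. An exact permutation test of 2 arrays against 2 cannot give a two-sided p under 0.333.

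Which array was left out mattered for the set as a whole. The median difference was 0.0079 without control replicate 1, −0.54 without control replicate 2, −0.14 without SP600125 replicate 1 and −0.12 without SP600125 replicate 2. The number of genes with a lower mean was 25, 36, 32 and 33 in the same order. Within the arrays numbered 1 the median treatment difference was −0.28, and within those numbered 2 it was −0.06. Levels were lower in both of these comparisons for 25 genes (23.6% of all genes) and higher in both for 8 (29.1% of all genes).

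**Figure D1:**
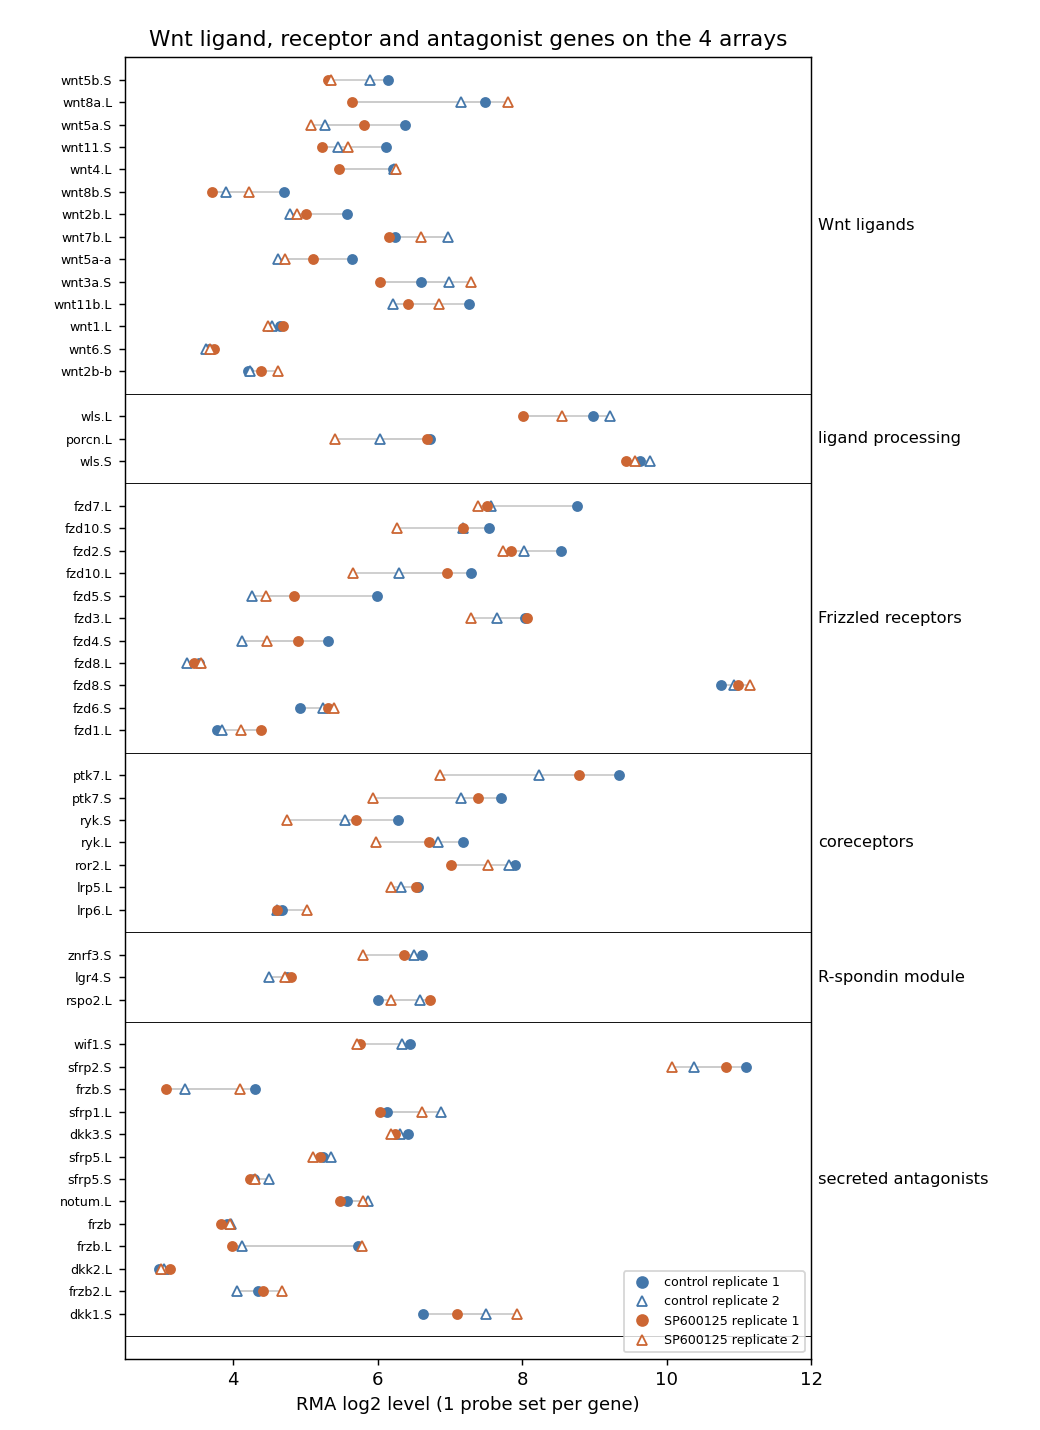
RMA log2 level of the 51 genes on each of the 4 arrays, 1 probe set per gene, ordered by difference within each role. Blue marks controls and orange SP600125, filled circles replicate 1 and open triangles replicate 2. The orange and blue symbols separate for wnt5b.S, wls.L and wif1.S, whereas for genes such as ptk7.L and dkk1.S the circles separate from the triangles.

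Brightness depends on the probes, so levels are compared between arrays and not between genes. Values are given as replicate 1 and then replicate 2, and differences as SP600125 minus control with the SE of the limma fit. That fit has no replicate block, so the SE includes the spread between replicate numbers. It is wide for genes that differ strongly by number, also where the treatment difference is alike within both numbers.

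Wnt ligands. The mean of 12 of the 14 ligands was lower after SP600125, with a median difference of −0.23, but only wnt5b.S lay below both controls on both treated arrays. The median was −0.57 within the arrays numbered 1 and 0.10 within those numbered 2. Only 3 of the 14 were lower within both numbers, or 21.4%, near the 23.6% of all genes. The level of wnt5b.S, a ligand of the beta-catenin-independent branches, was 6.14 and 5.90 in controls and 5.31 and 5.35 after SP600125. The groups did not overlap, and the difference was −0.69 ± 0.20, or 1.61-fold lower (unadjusted p = 0.027, adjusted p = 1). It lay between −0.81 and −0.56 with each array left out, where no fit gave an unadjusted p under 0.05.

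The related gene wnt5a.S read 6.37 and 5.27 in controls and 5.81 and 5.07 after treatment. Here the 2 arrays numbered 2 were the low ones in either group, and the treatment difference was −0.38 ± 0.50. The entry wnt5a-a, which the RefSeq gene table no longer holds, was likewise lowest on the arrays numbered 2 (5.64 and 4.63, then 5.11 and 4.72) and differed by −0.22 ± 0.42. Its other probe set differed by −0.27 ± 0.47.

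A further group of ligands had its lowest or nearly lowest level on SP600125 replicate 1 alone. The level of wnt8a.L, a ligand of ventral and posterior mesoderm that acts through beta-catenin, was 7.49 and 7.15 in controls but 5.65 and 7.80 after SP600125. The low and the high extreme were thus both treated arrays, with a difference of −0.59 ± 0.78 that became −1.67 without SP600125 replicate 2 and 0.48 without SP600125 replicate 1. Levels of wnt4.L were 6.21 and 6.22 in controls and 5.47 and 6.25 after treatment, again with 1 low treated array.

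The genes wnt11.S and wnt11b.L also crossed. The level of wnt11.S was 6.12 and 5.45 in controls and 5.23 and 5.59 after SP600125, and that of wnt11b.L was 7.27 and 6.22, then 6.41 and 6.85. In both, control replicate 1 was the highest array, and the treatment differences were −0.38 ± 0.32 and −0.11 ± 0.44. The dim gene wnt8b.S had the same order as wnt11.S, at 4.70 and 3.89, then 3.71 and 4.22.

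The caudal ligand gene wnt3a.S, expressed in the tailbud and dorsal neural tube, spread more between treated arrays (6.03 and 7.3) than between controls (6.59 and 6.98). Its difference was −0.12 ± 0.50. For wnt7b.L the 2 probe sets differed in sign, at −0.22 ± 0.35 and 0.27 ± 0.51, and wnt2b.L differed by −0.24 ± 0.34.

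The ligands with higher means, wnt2b-b and wnt6.S, were dim. Both lay above the controls on both treated arrays, by 0.28 ± 0.20 and 0.06 ± 0.19, and the second probe set of wnt2b-b differed by −0.05 ± 0.21. Among the ligands 7.1% lay below and 14.3% above both controls on both treated arrays, near the 9.1% and 12.3% of all genes. The dim gene wnt1.L, a midbrain and dorsal neural ligand, differed by less than 0.01. With control replicate 1 left out the median over the ligands turned to 0.06, and with control replicate 2 left out it was −0.63. Without SP600125 replicate 1 the ligand median was −0.04, and without SP600125 replicate 2 it was −0.39.

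Ligand processing. The 3 genes of this role all had lower means. The level of wls.L, which encodes the carrier Wntless, was 8.98 and 9.22 in controls and 8.0 and 8.55 after SP600125. Its groups did not overlap, and the difference was −0.82 ± 0.28, or 1.76-fold lower (unadjusted p = 0.042, adjusted p = 1). With an array left out the difference lay between −1.09 and −0.54, the latter without SP600125 replicate 1 (unadjusted p = 0.16 in limma), and 3 of these 4 fits gave an unadjusted p above 0.05. Its homeolog wls.S read 9.63 and 9.77, then 9.43 and 9.56. It too lay below both controls on both treated arrays, by a smaller step of −0.20 ± 0.20, and wls was the only homeologous pair of these families with no overlap between groups for either copy. The acyltransferase gene porcn.L separated by replicate number instead, at 6.73 and 6.04 in controls and 6.68 and 5.41 after treatment (−0.34 ± 0.54).

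Frizzled receptors. Of 11 receptor genes, 7 had lower and 4 higher means, with a median of −0.17 that turned to 0.10 without control replicate 1 and to 0.15 without SP600125 replicate 2. Leaving out control replicate 2 gave −0.64, and leaving out SP600125 replicate 1 gave −0.55. Such fits mix in the difference between numbers, which had a median of −0.58 in this role (number 2 minus number 1). The median was −0.34 within the arrays numbered 1 and 0.14 within those numbered 2. Levels were lower within both numbers for 4 of the 11 genes (23.6% of all genes). Both directions occurred among the members: fzd2.S and fzd7.L lay below both controls on both treated arrays, and fzd1.L, fzd6.S and fzd8.S above them. These were 18.2% and 27.3% of the 11 genes, against 9.1% and 12.3% of all genes.

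The level of fzd7.L, a receptor of the mesoderm and neural plate in both main Wnt branches, was 8.76 and 7.57 in controls and 7.52 and 7.38 after SP600125. Control replicate 1 was high and the other 3 arrays were close together, so the difference of −0.72 ± 0.46 became −0.12 without control replicate 1. Its 5 probe sets all differed downward, from −0.85 to −0.44, but only the one with the highest mean kept the groups apart. For fzd2.S the arrays read 8.54 and 8.03, then 7.85 and 7.73, with a difference of −0.50 ± 0.26.

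Both homeologs of fzd10, a receptor of the dorsal neural tube, were lowest on SP600125 replicate 2. The level of fzd10.S was 7.55 and 7.18 in controls and 7.18 and 6.27 after treatment, and fzd10.L read 7.29 and 6.29, then 6.95 and 5.66. Their groups overlapped, and the differences were −0.64 ± 0.39 and −0.48 ± 0.60. Arrays numbered 2 were also the lower ones for fzd3.L (−0.17 ± 0.35), a receptor of cell polarity, and for the dim genes fzd4.S (−0.04 ± 0.48) and fzd5.S (−0.47 ± 0.65).

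Small upward differences stood among the remaining receptors. The level of fzd8.S was 10.75 and 10.92 in controls and 10.99 and 11.15 after SP600125, a difference of 0.23 ± 0.20 with no overlap. Its 3 other probe sets differed the other way, from −0.31 to −0.10, and their groups overlapped, so the direction of fzd8.S depends on the probe set taken. The level of fzd6.S, a receptor of the polarity branch, was 4.92 and 5.24, then 5.31 and 5.39 (0.26 ± 0.22), and the dim gene fzd1.L read 3.78 and 3.84, then 4.39 and 4.11 (0.44 ± 0.21). The homeolog fzd8.L was dim and differed by 0.07 ± 0.20.

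Coreceptors. This role had the lowest median difference, −0.66 over 7 genes, and 6 of the 7 had lower means. It also differed strongly by replicate number, with a median of −0.54 for arrays numbered 2 minus arrays numbered 1. Levels were lower within both replicate numbers for 6 of the 7 genes (23.6% of all genes). The 6 include both homeologs of ptk7 and of ryk, and probes of a copy can also bind transcripts of its homeolog. They also include lrp5.L, which differed by only −0.03 within the arrays numbered 1. The median over the 7 genes was −0.47 within the arrays numbered 1 and −0.79 within those numbered 2. Leaving out 1 array leaves the numbers unbalanced between the groups. Without SP600125 replicate 2 the median treatment difference was −0.04, and without SP600125 replicate 1 it was −1.03. Without control replicate 1 it was −0.41, and without control replicate 2 it was −0.83.

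The level of ror2.L, a tyrosine kinase receptor for Wnt5 ligands, was 7.89 and 7.81 in controls and 7.02 and 7.53 after SP600125. Control arrays lay close together and both treated arrays below them, with a difference of −0.58 ± 0.26 (1.5-fold lower). Levels of ryk.L, a receptor with an inactive kinase domain, were 7.18 and 6.83, then 6.71 and 5.98, a difference of −0.66 ± 0.34 without overlap. Its homeolog ryk.S read 6.28 and 5.54 in controls and 5.70 and 4.75 after treatment. The groups of ryk.S overlapped, and its difference of −0.69 ± 0.46 was close to that of ryk.L.

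The largest negative difference of all 51 genes belonged to ptk7.L, a polarity receptor that lacks kinase activity. Its level was 9.34 and 8.24 in controls and 8.79 and 6.86 after SP600125, a difference of −0.96 ± 0.80. Most of the spread ran between replicate numbers, with arrays numbered 2 lower by 1.51 on average. Within the arrays numbered 1 the treatment difference was −0.55, and within those numbered 2 it was −1.37. Without SP600125 replicate 2 no treatment difference was left at 2 decimals. That fit set SP600125 replicate 1 against controls of both numbers. The homeolog ptk7.S followed the same order, at 7.71 and 7.15, then 7.39 and 5.93 (−0.77 ± 0.57).

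The coreceptors of the beta-catenin branch differed little. The level of lrp5.L was 6.56 and 6.32 in controls and 6.53 and 6.19 after treatment (−0.08 ± 0.23). The dim gene lrp6.L differed by 0.17 ± 0.23 and 0.11 ± 0.19 in its 2 probe sets.

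**Figure D2:**
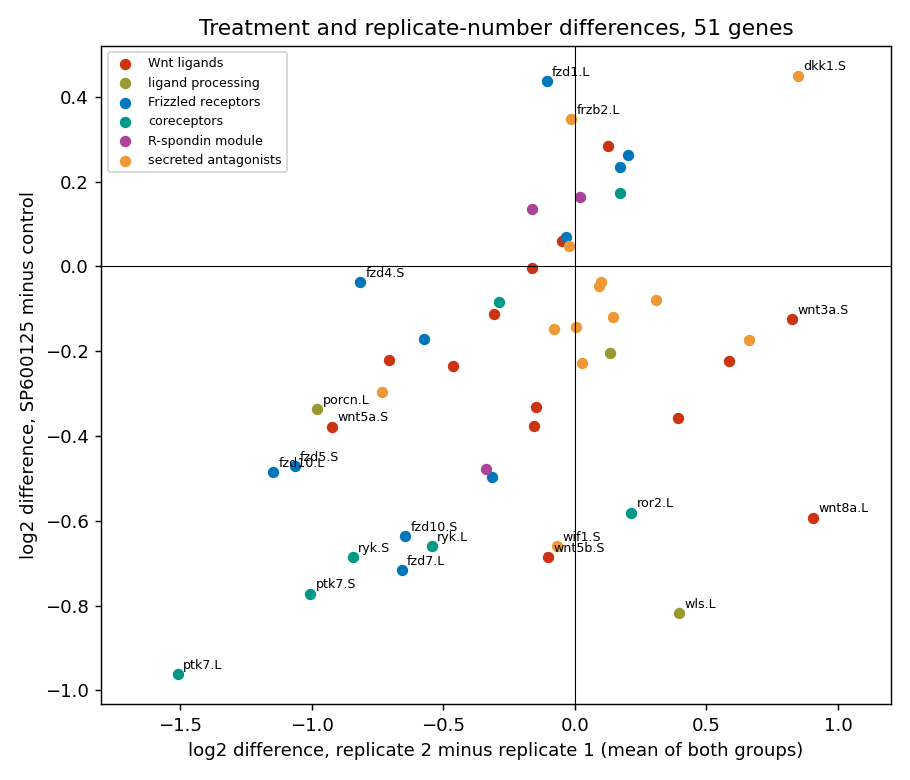
Log2 difference by treatment (vertical axis, SP600125 minus control) against the log2 difference by replicate number (horizontal axis, number 2 minus number 1), 1 point per gene for 51 genes, coloured by role. The coreceptors ptk7.L, ptk7.S, ryk.S and ryk.L lie low and to the left, and wnt5b.S and wif1.S lie low near 0 on the horizontal axis.

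R-spondin module. The level of znrf3.S, the ubiquitin ligase that removes Frizzled from the membrane and is itself induced by Wnt signals, was 6.61 and 6.50 in controls and 6.36 and 5.80 after SP600125. Its groups did not overlap, with a difference of −0.48 ± 0.27. The levels of rspo2.L were 6.0 and 6.59, then 6.73 and 6.19, so that each group held a high and a low array (0.16 ± 0.33). The R-spondin receptor gene lgr4.S was dim and differed by 0.13 ± 0.21. The median over these 3 genes, 0.13, turned to −0.13 without control replicate 1 and to −0.11 without SP600125 replicate 1.

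Secreted antagonists. Of 13 antagonist genes 10 had lower means, with a median of −0.12 that was 0.02 without SP600125 replicate 1 and −0.01 without control replicate 2. The level of wif1.S, a ligand-binding antagonist, was 6.45 and 6.34 in controls and 5.75 and 5.72 after SP600125. Arrays within each group lay closer together than the groups, and the difference was −0.66 ± 0.19, or 1.58-fold lower (unadjusted p = 0.024, adjusted p = 1). With each array left out it lay between −0.71 and −0.61, and no such fit gave an unadjusted p under 0.05. Its other 3 probe sets were lower by less, at −0.25 ± 0.34, −0.20 ± 0.22 and −0.09 ± 0.20, with overlap in each, and the mean over the 4 probe sets differed by −0.30 (unadjusted p = 0.23).

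The Lrp6-blocking antagonist gene dkk1.S had the largest positive difference. Its level was 6.63 and 7.50 in controls and 7.1 and 7.93 after treatment, so the arrays numbered 2 were the high ones and the groups overlapped (0.45 ± 0.46). Within the arrays numbered 1 the difference was 0.47, and within those numbered 2 it was 0.43. Fits with 1 array left out mix in the difference between numbers. Leaving out control replicate 1 or SP600125 replicate 2 brought the difference to 0.02 or 0.03. With control replicate 2 or SP600125 replicate 1 left out it was 0.88 or 0.86. The second probe set differed by 0.15 ± 0.45. The divergent family member dkk3.S lay below both controls on both treated arrays by a small step, at 6.41 and 6.31, then 6.24 and 6.19 (−0.15 ± 0.19).

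Among the Sfrp genes, sfrp2.S read 11.10 and 10.38 in controls and 10.82 and 10.07 after SP600125 (−0.30 ± 0.41). Arrays numbered 2 were low for sfrp2.S and high for sfrp1.L, which read 6.12 and 6.88, then 6.04 and 6.61 (−0.17 ± 0.38). Of the sfrp5 pair, sfrp5.L lay below both controls by −0.14 ± 0.19 and the dim sfrp5.S overlapped (−0.12 ± 0.20). The lipid-removing enzyme gene notum.L, a target of Wnt signals in other animals, differed by −0.08 ± 0.24.

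The homeologs of frzb, an antagonist of Wnt8, crossed between arrays, and the crossing of frzb.L was the widest of the 51 genes. The level of frzb.L was 5.72 and 4.13 in controls and 3.99 and 5.79 after SP600125, and frzb.S read 4.30 and 3.33, then 3.08 and 4.10. In both copies control replicate 1 and SP600125 replicate 2 were high and the other 2 arrays low. Treatment differences were −0.04 ± 0.86 and −0.23 ± 0.53. Another entry, named frzb without suffix, which the RefSeq gene table no longer holds, was dim on all arrays (−0.05 ± 0.19), as was dkk2.L (0.05 ± 0.19). The dim gene frzb2.L lay above both controls on both treated arrays (0.35 ± 0.23), and its second probe set differed by 0.04 ± 0.23.

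The genes whose groups did not overlap differed in brightness by direction. None of the 11 genes with both treated arrays below both controls was dim, while 4 of the 6 with both arrays above were. Over all genes, 769 of the 1028 with both below were not dim, and 978 of the 1384 with both above. Of the 35 genes that were not dim, 31 had lower and 4 higher means, with a median of −0.34. Among all 8654 genes that were not dim, 47% had lower means, the median was 0.02 and 8.89% lay below both controls on both treated arrays, against 31.4% of these 35. Above both controls on both treated arrays lay 11.3% of the 8654 genes and 5.7% of the 35. RMA can compress small differences of dim probe sets. Its part in the values of the 16 dim genes was not tested.

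Replicate number was the most frequent leading source of spread among the members, as over all genes. Of the 3 ways in which 2 arrays can be set against the other 2, the split by replicate number gave the largest difference for 24 genes. The split by treatment did so for 17 and the crossed one for 10. With 4 arrays the treatment split leads where the groups do not overlap. The 17 are thus the genes already counted as 11 below and 6 above both controls, not a separate observation. Over all genes the shares were 59.0%, 21.4% and 19.7%, and over these genes 47.1%, 33.3% and 19.6%. By summed squared deviations from each probe set's mean, treatment held 20.3% among member probe sets and 20.8% over all. Replicate number held 57.7% and 62.7%. By role, replicate number led for 4 of 7 coreceptors, always with arrays numbered 2 lower, and for 5 of 11 Frizzled genes, again with arrays numbered 2 lower. Among antagonists the arrays numbered 2 were both higher for 5 of 13 genes and both lower for 1. Over all genes both arrays numbered 2 lay below both numbered 1 for 22.9% and above them for 36.0%, so the antagonists' share of higher genes, 38.5%, was near that of all genes.

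**Figure D3:**
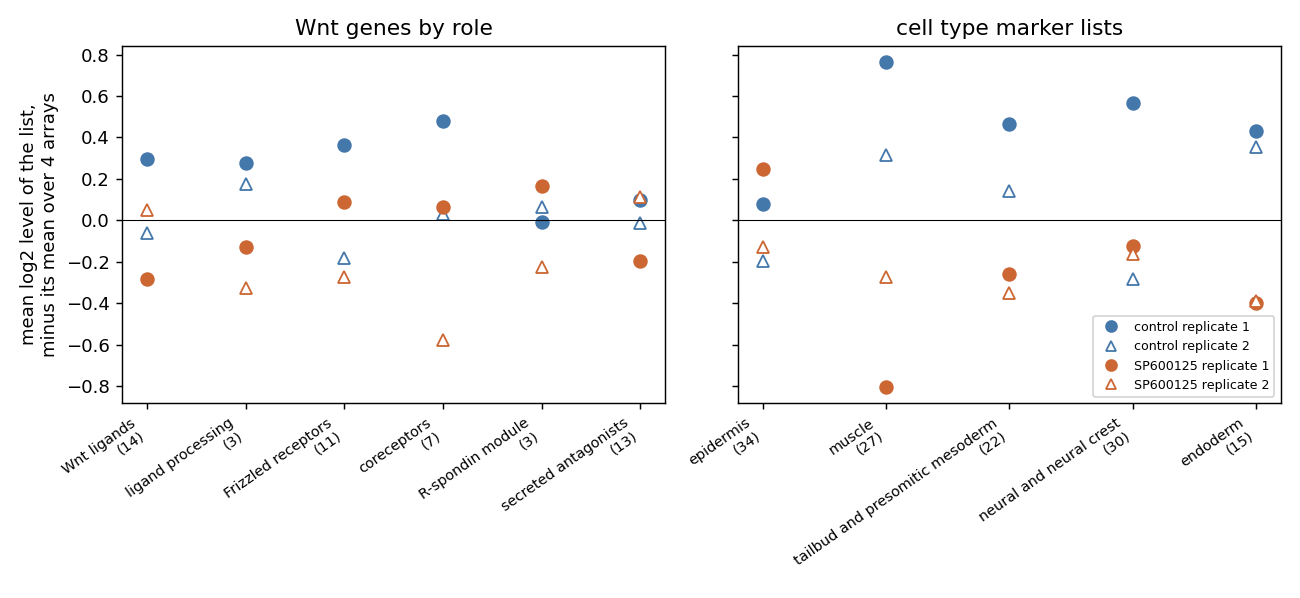
Mean log2 level of each role (left) and of each cell type marker list (right) on the 4 arrays, as a deviation from the list's mean over the arrays, with the number of genes in brackets. Muscle, mesoderm and endoderm lists have both treated arrays below both controls, as does ligand processing, and the other Wnt roles overlap between groups.

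Probe sets for the same gene or for its homeolog mostly shared a direction. All 7 homeologous pairs (frzb, fzd8, fzd10, ptk7, ryk, sfrp5 and wls) had the same sign in both copies, taken by the probe set of highest mean. Probes of one copy can also bind transcripts of the other. With the mean over its probe sets fzd8.S differed by −0.08, opposite to fzd8.L at 0.07. Of the 12 genes with more than 1 probe set, 9 had the same sign in all of them, and fzd8.S, wnt2b-b and wnt7b.L did not. The shares of such pairs and genes over the whole array were not computed, so neither count has a background.

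**Figure D4:**
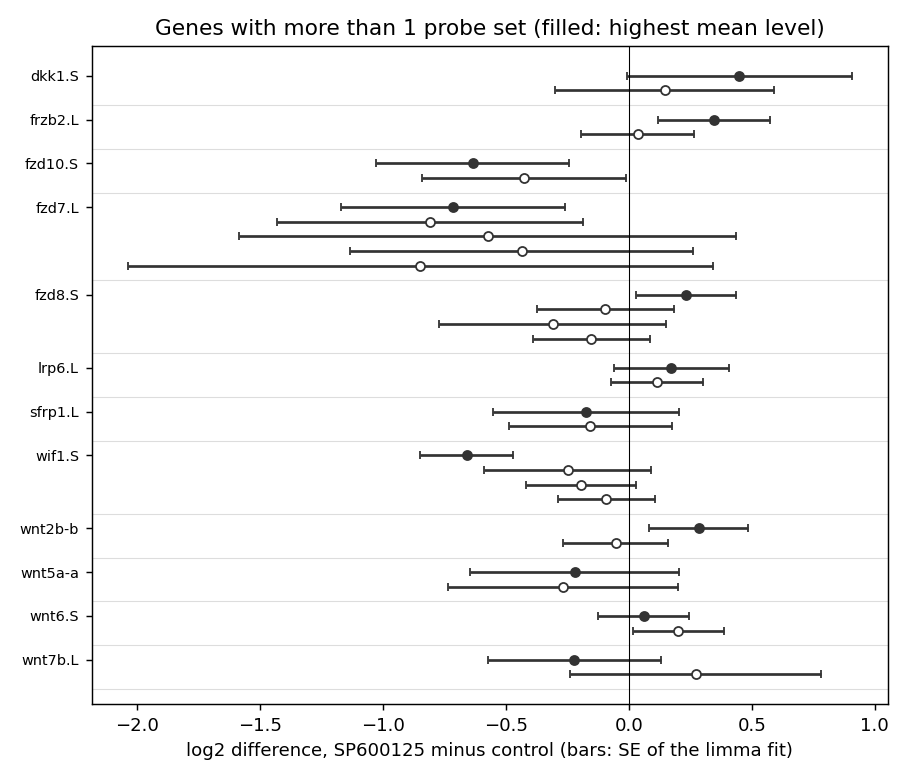
Log2 difference, SP600125 minus control, for each probe set of the 12 genes with more than 1 probe set (horizontal axis, bars are the SE of the limma fit), with the probe set of highest mean filled. All 5 probe sets of fzd7.L and all 4 of wif1.S lie below 0, and those of fzd8.S lie on both sides.

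Other genes of the pathway were split in direction. Of 12 further extracellular modulators 5 had lower and 7 higher means, and 0 passed at an adjusted p under 0.05 in limma, nor at an unadjusted p under 0.05. Those with the smallest p were apcdd1.L, a membrane antagonist (−0.88 ± 0.33), gpc4.L, a glypican that binds Wnt (−0.51 ± 0.25), and kremen1.S, a Dkk receptor (0.71 ± 0.46). The level of apcdd1.L was 6.92 and 6.87 in controls and 6.40 and 5.62 after SP600125, without overlap. Of 41 intracellular pathway genes 26 had lower means, or 63.4% against 45.9% of all genes. Their median difference was −0.07, and 0 passed either threshold in limma. The casein kinase gene csnk1d.S differed by 0.66 ± 0.25, the corepressor gene tle2.L by −0.73 ± 0.31 and ctnnb1.L, which encodes beta-catenin, by −0.47 ± 0.25. Both treated arrays lay below both controls for 3 of the 41 and above for 6, against 9.1% and 12.3% of all genes.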

How the data were processed

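The deposited log2 values were made by the authors with affy and RMA, per the submitters' processing notes, without versions. RMA corrects background, equalises array distributions by quantiles and summarises the probes of a set, so a shift shared by most transcripts cannot be seen. The probe definition and filters are not given in those notes or the labels. Of 16755 probe sets, 10 controls were left out. GEO's platform annotation gave 15445 probe sets 1 symbol, 279 several and 1021 none, and 48 of the 51 member genes were found in a RefSeq gene table by identifier. A gene was represented by its probe set with the highest mean.

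SP600125 was compared with control with limma 3.58.1 in R 4.3.3 (lmFit, eBayes, 2 residual and 2.10 prior degrees of freedom, two-sided, Benjamini-Hochberg adjustment over all 16745 probe sets). The code was tested on simulated data with larger shifts than any member gene had and without differences by replicate number. That test checked the code and does not measure power in these data. Arrays number 4, which limits every value. Groups came from sample titles. Named in each role were the members with the smallest unadjusted p, up to 8, the brightest, and their homeologs, and from the further pathway lists 3 genes each; wnt1.L, wnt3a.S, wnt5a-a, wnt6.S, wnt7b.L, wnt11b.L, fzd3.L, fzd4.S, notum.L, dkk2.L and the frzb entries were added after their values were seen. Members and lists were chosen with earlier results of these data known. The plots used matplotlib 3.10.9 under Python 3.11.15.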

Additional observations from a re-analysis of the deposited data

How the results depend on the processing

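No probe set of the array, and so 0 of the 70 member probe sets, passed an adjusted p under 0.05 under any of the 10 alternatives. These were the replicate number as a block, dim probe sets left out, quantile normalization applied again, cyclic loess, a prior with trend and robust fitting, averaging the probe sets of each gene, and each array left out. With the replicate block 7 of the 51 member genes, all lower, had an unadjusted p under 0.05 in limma, against 3 without it. Over the array 1063 of 16745 probe sets met that threshold with the block and 269 without it. The array counts are of probe sets in both directions, and the share of all genes by direction was not computed with the block. The 7 genes therefore have no matching background, and whether they exceed the rate of the array was not tested. Deviations of same-numbered arrays correlated at 0.59 over all probe sets, but the labels do not say what a number marks. Without dim probe sets 0 of 35 member genes met the unadjusted threshold, where 158 of 12100 probe sets did so in either direction. With the trend and robust prior 1 member gene met it, the higher gene fzd1.L, beside 253 of 16745 probe sets. The median difference over the member genes lay between −0.34 and −0.17 under the alternatives that keep all arrays, and between −0.54 and 0.0079 with an array left out. The count of genes below both controls on both treated arrays ran from 10 to 14 with all arrays and from 16 to 28 with an array left out, where 25.7% to 29.5% of all genes did so. The count above ran from 9 to 14 with an array left out (23.2% to 42.6% of all genes), where fewer arrays have to separate, and was 2 without dim probe sets, which removes 4 of the 6. Of 38 genes named by rule, 24 had the same sign with each array left out, and 14 did not. A gene whose groups do not overlap cannot change sign in such fits, so for those genes the outcome was fixed. The 38 were named partly by smallest unadjusted p in limma, and no share over all genes stands beside the 24. Leaving out 1 array also leaves the replicate numbers unbalanced between the groups. Among the 38, the sign turned under the alternatives that keep all arrays for fzd8.S alone, with the mean over its probe sets. Over all 51 member genes, 49 kept their sign with quantile normalization applied again, and 49 with the mean over probe sets.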
